A study of Mus musculus with 6 samples.

Results

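The genes described here are 10 mouse genes of the integrated stress response that are controlled by, or work beside, the transcription factor ATF4: Atf4, Atf5, Atf3, Ddit3, Nupr1, Chac1, Asns, Pck2, Trib3 and Ppp1r15a. They were taken from the expression table by gene symbol alone, whatever their values. The 10 symbols occupied 11 entries of the 54532 in the table, because Ddit3 was listed under a pair of identifiers. The shorter Ddit3 entry, ENSMUSG00000116429, held 0 reads in every sample and was not tested. The other 10 entries were all among the 12681 genes tested.

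RNA was measured by sequencing in MC3T3-E1, an established mouse pre-osteoblast line that lays down a mineralised matrix when it is given osteogenic medium. The sample titles name the groups only as nc and met, and the treatments given here are those of the study's text. By that text all 6 samples were grown in osteogenic medium, which contains β-glycerophosphate, ascorbic acid and dexamethasone. The 3 control samples (nc) were read as this medium alone. The 3 metformin samples (met) were read as the medium with 0.2 mM metformin, a biguanide drug for type 2 diabetes. The study's methods give 3 days of induction. The methods call the samples biological replicates of 1 cell line.

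The integrated stress response is a shared pathway by which cells answer a lack of amino acids, unfolded protein in the endoplasmic reticulum, a lack of heme, viral RNA and faults of the mitochondria. Kinases that sense these states phosphorylate the translation factor eIF2, which lowers protein synthesis in general but raises translation of the Atf4 mRNA, and ATF4 protein then binds DNA with partner proteins and turns on genes for amino acid uptake and synthesis, redox balance and, under lasting stress, cell death. In osteoblasts ATF4 is also known as a factor needed for late differentiation and for the amino acid supply of collagen synthesis.

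The 10 genes did not move together. Chac1, Asns and Pck2, which encode enzymes, were higher with metformin. The genes for the transcription factors ATF3 and CHOP (Ddit3) and for the stress protein NUPR1 were lower. Atf4, Atf5, Trib3 and Ppp1r15a did not pass the test. So 3 of 10 were called higher, against 13.2% of all tested genes, and 3 of 10 were called lower, against 9.28% of all tested genes. A gene was called at a Benjamini-Hochberg adjusted p under 0.05 in a limma fit over all tested genes, on log2(FPKM + 1), where FPKM counts fragments per length of the gene and per size of the library. The median log2 fold change of the 10 genes was 0.31, and that of all tested genes was 0.01. In bulk RNA, fewer cells that use a gene and less of its RNA per cell cannot be told apart.

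The samples were sequenced to between 18399861 and 22111790 recovered reads, and each of the 10 genes held between 155 and 7675 reads in a sample. Control replicate 1 stood apart from the other samples. Across genes its log2 values had a Pearson correlation of 0.960 and 0.952 with the other controls, while controls 2 and 3 had 0.988. The deviation of control 1 from the mean of controls 2 and 3 went with the GC content of the transcript, with a Spearman correlation of -0.668 across 12663 genes, which are not independent replicates. Of the 10 genes, 9 had their lowest control value in control 1, as did 40.2% of all tested genes. Results are therefore given with and without this library. Osteoblast markers summed to between 10000 and 11750 FPKM in the controls and between 6793 and 7184 in the metformin samples, with 8 of 8 markers at 0.5 FPKM or more. Of these 8, 2 were called lower and 2 higher by limma, against 9.28% and 13.2% of all tested genes. Spp1 and Ibsp, matrix proteins of mineralising bone, had log2 fold changes of -1.50 and -1.60, and the collagen genes Col1a1 and Col1a2 had 0.93 and 0.57. The other 4, Runx2, Sp7, Alpl and Bglap, were not called. Spp1 was the most abundant and carried the sum, at 6565 to 8357 FPKM in controls and 2680 to 2727 with metformin. Of the other cell types checked, adipocyte markers (1 of 5 at 0.5 FPKM or more, Cidec at 0) summed to between 1.65 and 3.18 FPKM in controls and 1.89 and 2.31 with metformin. Macrophage markers (2 of 5) summed to between 15.3 and 26.0 FPKM in controls and 27.1 and 30.9 with metformin. This sum was mostly Lyz2 (13.1 to 24.01 FPKM in controls and 25.9 to 29.6 with metformin, not called, adjusted p 0.0771), while Cd68, at a mean of 2.04 and 1.17 FPKM, was called lower (adjusted p 0.0102), and Ptprc, Csf1r and Adgre1 were under 0.5 FPKM. The skeletal muscle markers (1 of 4, Myod1 and Myog at 0) summed to between 1.20 and 1.87 FPKM and between 2.07 and 2.40. Endothelial markers (0 of 4) summed to no more than 0.131 FPKM in any sample. The part of the macrophage and muscle markers in the results was not tested.

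**Figure D1:**
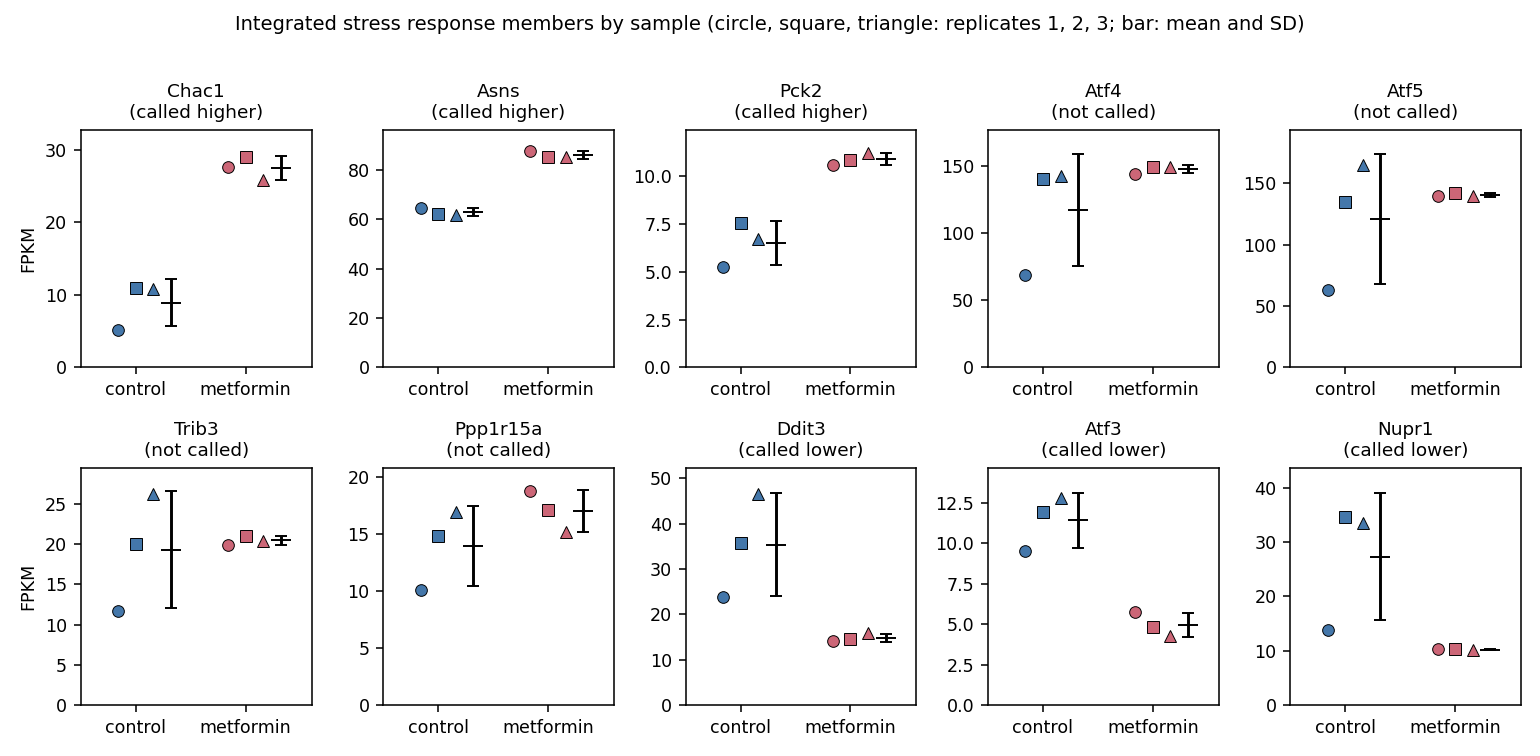
FPKM of the 10 genes in each sample, with 3 control and 3 metformin samples per gene and the mean with its SD as bars; each panel has its own axis starting at 0. The metformin samples of Chac1, Asns and Pck2 sit above all controls, those of Ddit3, Atf3 and Nupr1 sit below all controls, and control replicate 1 is the lowest control for 9 of the 10 genes.

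Atf4 encodes the central activator of the response, a basic leucine zipper protein. The gene lies at chr15:80255184-80257541 on the plus strand (GRCm38). Its level was 68.7, 141 and 142 FPKM in controls 1, 2 and 3, and 144, 149 and 149 FPKM in the metformin samples. The metformin samples were all above the controls, but controls 2 and 3 were close to them and control 1 was at 48.5% of the mean of controls 2 and 3. The mean was 117 ± 42.1 FPKM (SD, n = 3) in controls and 148 ± 2.84 with metformin. The log2 fold change of 0.40 (SE 0.28, 95% interval -0.26 to 1.07) did not pass the limma test, with a Benjamini-Hochberg adjusted p of 0.345. Without control 1 it was 0.06, with an interval of -0.07 to 0.19 and an adjusted p of 0.411. These are levels of RNA. Translation of the Atf4 mRNA, the step at which eIF2 acts, was not measured here.

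Atf5 encodes a related factor whose mRNA is also translated more when eIF2 is phosphorylated, and which is known for the mitochondrial stress response. It lies at chr7:44812256-44816658 on the minus strand. Its level was 62.7, 135 and 165 FPKM in the controls and 140, 142 and 140 FPKM with metformin. The metformin samples fell within the range of the controls. The log2 fold change was 0.32 (SE 0.34, interval -0.48 to 1.12, limma adjusted p 0.534), and without control 1 it was -0.09 (interval -0.31 to 0.13, adjusted p 0.461). Atf5 overlaps Nup62 on the other strand, which held 896 to 1536 reads per sample, and the sources used here do not state whether the counting used strand.

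Ddit3 encodes CHOP, a transcription factor that ATF4 induces and that is best known for promoting cell death under lasting stress of the endoplasmic reticulum. It lies at chr10:127290774-127296288 on the plus strand. Its level was 23.8, 35.7 and 46.6 FPKM in the controls and 14.2, 14.5 and 15.9 FPKM with metformin. Every metformin sample was below every control, and the controls themselves differed widely. The mean fell from 35.4 ± 11.4 to 14.9 ± 0.934 FPKM (SD, n = 3 each), a 2.38-fold lower level. On the log2 scale the change was -1.15 (SE 0.23, interval -1.69 to -0.61, limma adjusted p 0.0129). It was -1.40 without control 1, with an adjusted p of 0.000228. The call was lost without control 2 (adjusted p 0.0513), metformin 1 (0.0573) or metformin 2 (0.0581). Ddit3 overlaps Mars, the gene of methionyl-tRNA synthetase, on the other strand. Mars held 1856 to 2335 reads per sample and a log2 fold change of 0.05 (adjusted p 0.686).

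Atf3 encodes a stress-induced factor that binds DNA alone or with other leucine zipper proteins and often represses its targets. The gene lies at chr1:191170296-191218039 on the minus strand. Its level was 9.53, 12.0 and 12.8 FPKM in the controls and 5.76, 4.84 and 4.29 FPKM with metformin. The groups did not overlap, and control 1 was closer to the other controls for Atf3 than for most of the 10 genes. The mean fell from 11.4 ± 1.70 to 4.96 ± 0.741 FPKM, a 2.30-fold lower level. Its log2 fold change was -1.06 (SE 0.14, interval -1.39 to -0.73, limma adjusted p 0.00269). The call held when any 1 of the 6 samples was left out, and without control 1 the log2 fold change was -1.17.

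Nupr1 encodes a small chromatin-associated protein that is induced by many stresses. It lies at chr7:126623249-126630861 on the minus strand. Its level was 13.9, 34.6 and 33.5 FPKM in the controls and 10.4, 10.3 and 10.1 FPKM with metformin. Every metformin sample was below every control, with control 1 nearest to them. The mean fell from 27.3 ± 11.6 to 10.2 ± 0.150 FPKM, a 2.67-fold lower level, and the log2 fold change was -1.23 (SE 0.33, interval -2.01 to -0.45, limma adjusted p 0.0380). Without control 1 it was -1.64, with an adjusted p of 8.85e-06. The call was lost when any other sample was left out: control 2 (adjusted p 0.113), control 3 (0.0993), metformin 1 (0.113), metformin 2 (0.118) or metformin 3 (0.116). It was also lost when genes under the limit on low values were kept in the test (0.0944).

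Chac1 encodes a γ-glutamyl cyclotransferase that breaks down glutathione. The gene lies at chr2:119351229-119354381 on the plus strand. Its level was 5.19, 10.9 and 10.7 FPKM in the controls and 27.6, 29.0 and 25.8 FPKM with metformin. All metformin samples were above all controls, by more than the spread within either group. The mean rose from 8.92 ± 3.24 to 27.5 ± 1.62 FPKM, a ratio of 3.08, or 2.55 against the mean of controls 2 and 3. The log2 fold change was 1.58 (SE 0.25, interval 0.98 to 2.18, limma adjusted p 0.00600). Chac1 stayed called when any 1 sample was left out, with a log2 fold change between 1.27 and 1.74. It had the highest fold change of the 10 genes.

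Asns encodes asparagine synthetase, which makes asparagine from aspartate and glutamine and is a classic gene of amino acid starvation. It lies at chr6:7675169-7693254 on the minus strand. Its level was 64.6, 62.2 and 61.6 FPKM in the controls and 87.7, 85.1 and 85.1 FPKM with metformin. Both groups were tight, they did not overlap, and Asns was the 1 gene of the 10 for which control 1 was not the lowest control. The mean rose from 62.8 ± 1.61 to 86.0 ± 1.48 FPKM, a ratio of 1.37. In the fit the log2 fold change was 0.45 (SE 0.08, interval 0.26 to 0.63, limma adjusted p 0.00813). The call was lost without metformin 1 (adjusted p 0.0633), metformin 2 (0.0532) or metformin 3 (0.0529), with little change in the fold.

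Pck2 encodes the mitochondrial form of phosphoenolpyruvate carboxykinase, which links the citric acid cycle to the synthesis of serine and glycerol. It lies at chr14:55540266-55551242 on the plus strand. Its level was 5.25, 7.55 and 6.70 FPKM in the controls and 10.6, 10.9 and 11.2 FPKM with metformin. The lowest metformin sample was above the highest control. The mean rose from 6.50 ± 1.16 to 10.9 ± 0.303 FPKM, a ratio of 1.68. For Pck2 the log2 fold change was 0.68 (SE 0.13, interval 0.38 to 0.98, limma adjusted p 0.0103), and it was 0.55 without control 1. The call was lost without metformin 2 (adjusted p 0.0509) or metformin 3 (0.0527).

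Trib3 and Ppp1r15a belong to the feedback arm. TRIB3 is a pseudokinase that is induced by ATF4 and CHOP and restrains ATF4, and it also binds AKT. Trib3 (chr2:152337422-152344032, minus strand) was at 11.8, 19.97 and 26.2 FPKM in the controls and 19.9, 20.99 and 20.4 FPKM with metformin. The metformin samples lay within the range of the controls. Its log2 fold change was 0.15 (SE 0.26, interval -0.47 to 0.76, limma adjusted p 0.728), and without control 1 it was -0.16 (interval -0.42 to 0.11, adjusted p 0.287). PPP1R15A, also called GADD34, brings a phosphatase to eIF2 and so ends the block on translation. Ppp1r15a (chr7:45522916-45526268, minus strand) was at 10.1, 14.8 and 16.96 FPKM in the controls and 18.8, 17.1 and 15.2 FPKM with metformin. The groups overlapped. The log2 fold change was 0.29 (SE 0.19, interval -0.15 to 0.74, limma adjusted p 0.307), and it was 0.09 without control 1 (adjusted p 0.482).

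**Figure D2:**
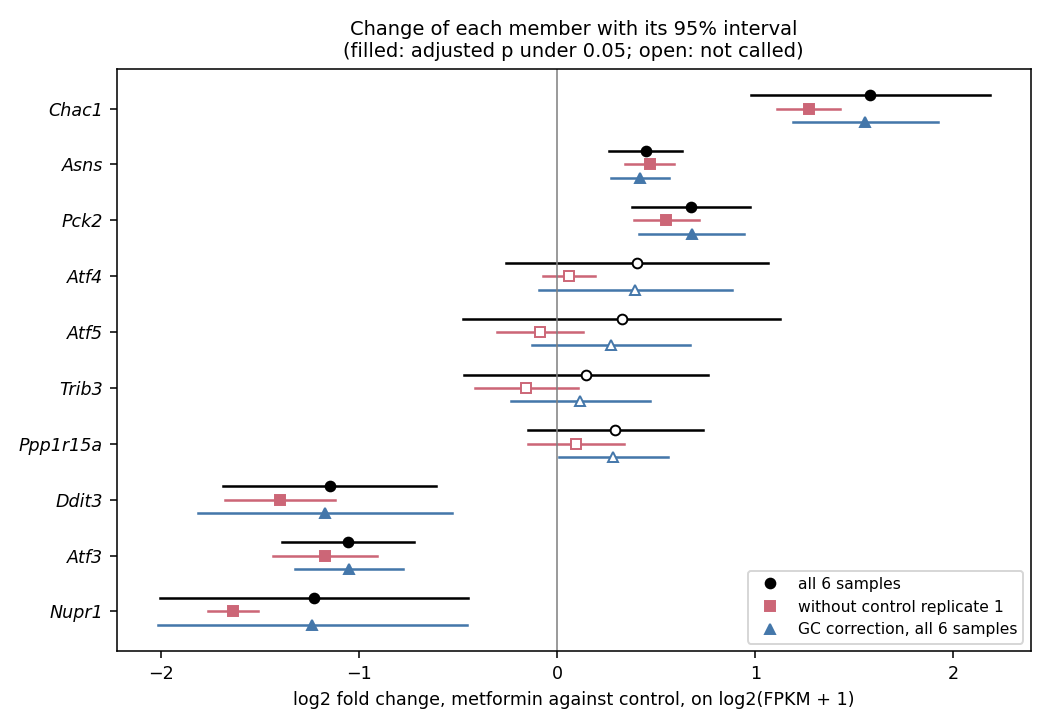
Log2 fold changes of the 10 genes between metformin and control on log2(FPKM + 1), with 95% intervals from limma. They are shown for all 6 samples, without control replicate 1, and for all 6 samples with GC correction. Chac1 is the highest at 1.58 and Nupr1 the lowest at -1.23, and Atf5 and Trib3 change sign without control replicate 1.

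The place of control 1 differed between the genes. Atf5, with a GC content of 61.7%, had a deviation of -1.24 on the log2 scale in control 1 from the mean of the other controls, where genes within 1 percentage point of its GC content had a median deviation of -0.68. Nupr1 (49.9% GC) had a deviation of -1.23, where genes of like GC content had a median of 0.02. Ddit3 (45.6% GC) had -0.75, where genes of like GC content had a median of 0.21. Asns (47.7% GC) had 0.06, where they had a median of 0.13. Atf4 (55.5% GC) had -1.03, where genes of like GC content had a median of -0.26. The values were -0.93 against -0.39 for Chac1, -0.90 against -0.45 for Trib3 and -0.60 against -0.27 for Ppp1r15a. They were -0.38 against -0.01 for Pck2 and -0.34 against -0.07 for Atf3. Control 1 was thus below the median of genes of like GC content for each of the 10 genes. A correction of every sample for GC content left all 6 calls in place: the log2 fold change was then 1.56 for Chac1, 0.42 for Asns, 0.68 for Pck2, -1.17 for Ddit3, -1.05 for Atf3 and -1.24 for Nupr1. Atf4 had 0.39 with this correction (limma adjusted p 0.183). Over all tested genes 19.1% were called higher and 16.0% lower with this correction, and 23.5% and 20.4% without control 1, where again 3 of the 10 genes were called higher and 3 lower.

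**Figure D3:**
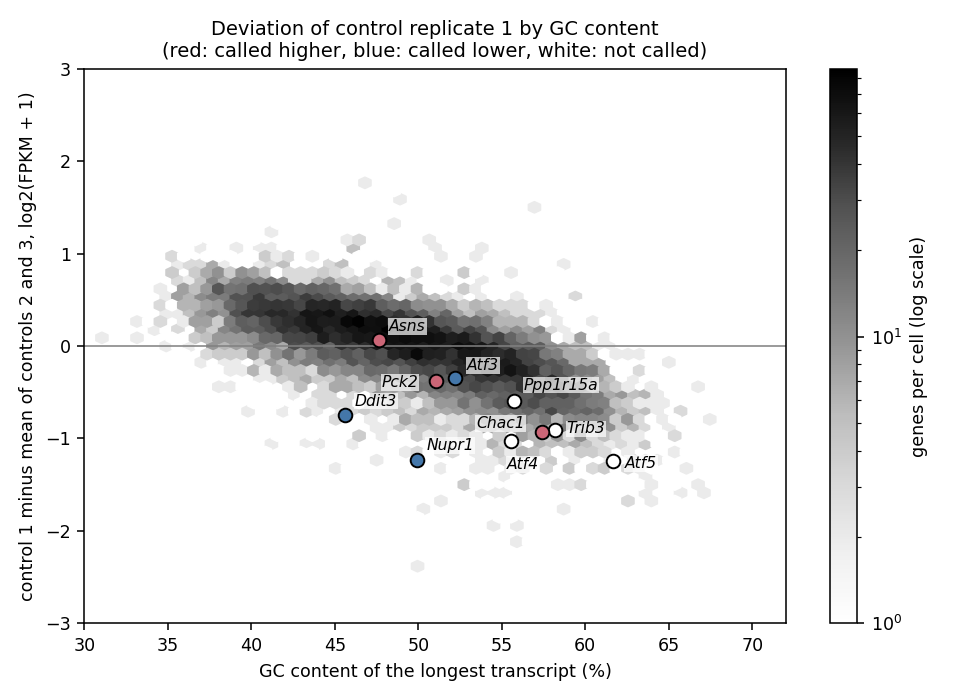
Deviation of control replicate 1 from the mean of controls 2 and 3, on log2(FPKM + 1), against the GC content of the longest transcript in percent; the shading counts tested genes on a log scale and the points are the 10 genes. The cloud falls with rising GC content. Each of the 10 genes lies below the median of genes of its GC content, among them Nupr1 (-1.23 against 0.02), Ddit3 (-0.75 against 0.21) and Atf4 (-1.03 against -0.26).

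Dividing a gene's FPKM by that of Atf4 in the same sample removes the scaling of the library. These ratios were chosen after the values were seen. Chac1 was at 0.0755, 0.0773 and 0.0753 of Atf4 in the controls and at 0.191, 0.194 and 0.173 with metformin. Control 1 lay with the other controls in this ratio. Ddit3 was at 0.347, 0.254 and 0.327 of Atf4 in the controls and at 0.0981, 0.0970 and 0.107 with metformin, and Nupr1 at 0.202, 0.246 and 0.235 and at 0.0720, 0.0688 and 0.0677. Atf3 was at 0.139, 0.0850 and 0.0899 of Atf4 in the controls and at 0.0399, 0.0324 and 0.0288 with metformin. For these 4 genes the groups did not overlap, and the exact permutation test gave a two-sided p of 0.1 for each, the smallest that 3 samples against 3 allow. The same held for Trib3, at 0.171, 0.142 and 0.184 of Atf4 in the controls and 0.138, 0.141 and 0.137 with metformin, though its own level was not called. Its nearest samples, control 2 at 0.142 and metformin 2 at 0.1405, were close. By level the groups of Chac1, Ddit3, Atf3 and Nupr1 already did not overlap, so their ratios are not separate support. Over all tested genes, levels did not overlap in 23.6% with metformin above and 20.5% with metformin below. The share for ratios to Atf4 was not computed. For Pck2, which was called higher by its own level, the ratio overlapped, at 0.0764, 0.0537 and 0.0470 in the controls and 0.0735, 0.0727 and 0.0752 with metformin (exact permutation p = 0.4). This overlap came from control 1 alone, where Atf4 was low, and controls 2 and 3 lay below every metformin sample. The ratios of Atf5 and Ppp1r15a overlapped as well. Asns to Atf4 did overlap, at 0.941, 0.443 and 0.432 in the controls and 0.608, 0.570 and 0.571 with metformin, with control 1 above all other samples. Controls 2 and 3 lay below every metformin sample in this ratio too. The ratio of Chac1 to Ddit3 was 0.217, 0.304 and 0.230 in the controls and 1.95, 2.002 and 1.62 with metformin, so that Ddit3 was the more abundant per length in every control and Chac1 in every metformin sample (exact permutation p = 0.1).

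**Figure D4:**
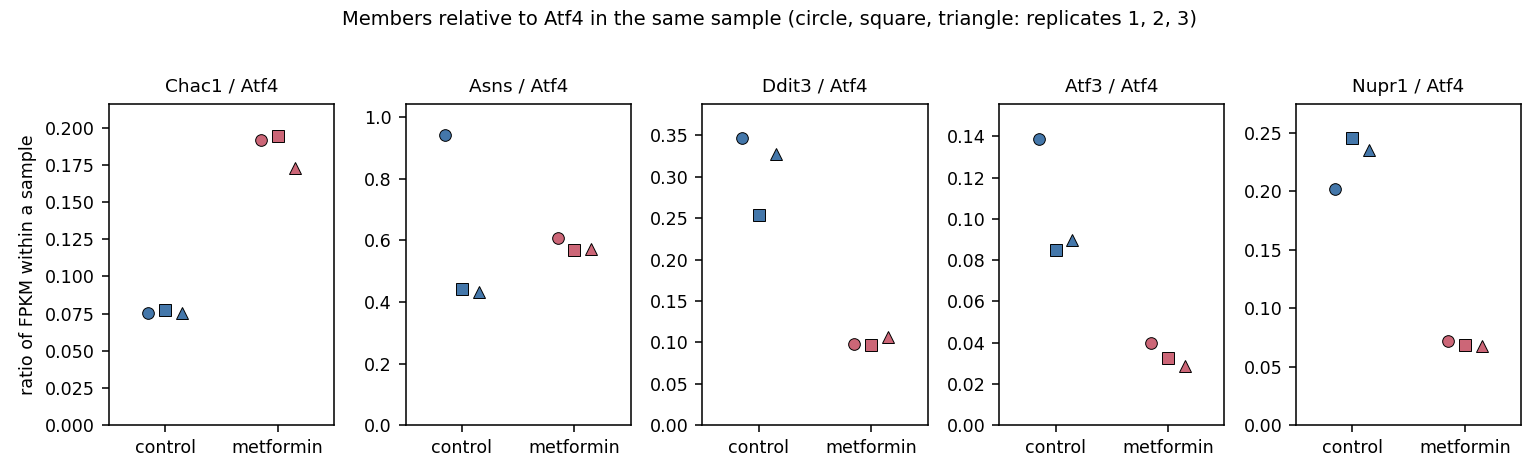
FPKM of a gene divided by the FPKM of Atf4 in the same sample, for 3 control and 3 metformin samples, each axis starting at 0. The ratio of Chac1 lies between 0.0753 and 0.0773 in the controls and between 0.173 and 0.194 with metformin, and the ratios of Ddit3, Atf3 and Nupr1 are lower in every metformin sample.

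The promoters of these genes were searched for the C/EBP-ATF response element, a composite site at which ATF4 pairs with a C/EBP protein. The letters searched were TGATGNAA on both strands, in windows of 250 bases before to 50 after each RefSeq start on GRCm38.p6. All 10 genes matched, with 11 windows since Atf5 has 2 starts. The element was found in 6 of 11 windows (54.5%) and in 1304 of 32851 windows of all genes (3.97%). The 10 genes were chosen as genes of the ATF4 response, so this higher share is tied to the choice and is not separate support. The windows of Chac1, Asns, Pck2, Atf3, Nupr1 and Trib3 held it, so it was found in windows of genes that were higher, lower and not called. The windows of Atf4, Atf5 and Ddit3 held none. The cyclic AMP response element TGACGTCA, a site of ATF and CREB proteins, was found in Ppp1r15a alone of the 10 genes and in 1.79% of all windows. The 30 bases around each match are shown to set the sites of genes that moved in opposite directions side by side, read 5′ to 3′ along the gene, with the match in capitals; TTGCATCA and TTACATCA are the element on the other strand. For Chac1 and Pck2 they lie at chr2:119351038-119351067 and chr14:55540152-55540181 (plus strand), for Asns, Atf3, Nupr1, Trib3 and Ppp1r15a at chr6:7693214-7693243, chr1:191183425-191183454, chr7:126625562-126625591, chr2:152344028-152344057 and chr7:45526262-45526291 (minus strand).
Chac1: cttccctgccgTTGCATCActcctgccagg
Pck2: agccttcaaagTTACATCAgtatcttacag
Asns: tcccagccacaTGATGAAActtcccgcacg
Atf3: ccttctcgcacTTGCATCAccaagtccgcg
Nupr1: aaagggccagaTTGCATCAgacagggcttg
Trib3: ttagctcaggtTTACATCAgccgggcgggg
Ppp1r15a: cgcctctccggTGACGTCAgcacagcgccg

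The match in Chac1 began 193 bases before the start, outside the gene. The matches in Atf3 and in Nupr1 both began 110 bases before the RefSeq start, within a GENCODE M21 intron of Atf3 and an exon of Nupr1. Chac1, Atf3 and Nupr1 thus held the same 8 letters, TTGCATCA, while Chac1 rose and Atf3 and Nupr1 fell. In Asns the match began 23 bases before the start, in an exon of the GENCODE M21 gene, and in Pck2 it began 103 bases before it, outside the gene. In Trib3 the match lay from base 15 to base 22 after the start. The 250 bases before the start of Chac1 are given because it had the highest fold change, and those of Pck2 because it is the other called gene whose match lies outside the gene (chr2:119350992-119351241 and chr14:55540016-55540265, plus strand, with the element in capitals).
Chac1: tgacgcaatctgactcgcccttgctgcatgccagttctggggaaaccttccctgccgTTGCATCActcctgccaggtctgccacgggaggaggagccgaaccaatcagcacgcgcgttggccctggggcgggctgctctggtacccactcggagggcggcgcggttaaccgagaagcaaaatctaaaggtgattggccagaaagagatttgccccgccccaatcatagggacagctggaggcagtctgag
Pck2: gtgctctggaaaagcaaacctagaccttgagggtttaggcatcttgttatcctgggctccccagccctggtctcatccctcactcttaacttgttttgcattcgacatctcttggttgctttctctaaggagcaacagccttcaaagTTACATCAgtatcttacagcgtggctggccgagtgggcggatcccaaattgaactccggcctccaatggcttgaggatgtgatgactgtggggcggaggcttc

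The other genes of the pathway were counted by list, 72 genes in all, of which 65 were tested. Of these 15 were called higher and 2 lower, against 13.2% and 9.28% of all tested genes. Groups that did not overlap were seen in 26 with metformin above and in 6 with metformin below, against 23.6% and 20.5% of all tested genes. The median log2 fold change was 0.15. Among the 10 genes above, 4 and 3 had groups that did not overlap. Without control 1, 26 of the other genes were called higher and 12 lower, against 23.5% and 20.4% of all tested genes in that fit. The response element was found in 2 of 12 promoter windows of the serine, one-carbon and amino acid enzymes (16.7%), 2 of 9 of the transporters, 5 of 8 of the tRNA charging genes, 3 of 15 of the stress and growth control genes, 1 of 7 of the leucine zipper partners and 1 of 14 of the eIF2 genes. These windows cover 11 of 13 enzymes, 6 of 9 transporters and 8 of 13 tRNA charging genes.

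The enzymes of serine, one-carbon and amino acid synthesis, known targets of ATF4 with Asns, were higher as a list: 8 of 11 tested genes were called higher, 0 were called lower, against 13.2% and 9.28% of all tested genes, and the median log2 fold change was 0.74. The counts were again 8 and 0 without control 1, against 23.5% and 20.4% of all tested genes in that fit. At an unadjusted p under 0.05, and with voom on the recovered reads, 0 of the 11 were lower as well. In 10 of the 11 every metformin sample was above every control. Psat1, the second enzyme of serine synthesis, was at 31.4, 29.1 and 25.8 FPKM in the controls and 57.1, 58.8 and 57.1 with metformin (log2 fold change 0.98). Psph, the last enzyme of that pathway, had 0.95, though 255 bases of it match Cct6a, which overlaps it on the other strand with 3743 to 5395 reads, so that its count is less certain. Of the mitochondrial folate enzymes, Mthfd1l had 1.01, Shmt2 0.77, Mthfd2 0.74 and Aldh1l2 0.66. Aldh1l2 is uncertain in the same way, with 1056 bases that match D10Wsu102e on the other strand, which held 853 to 1020 reads. The proline synthesis enzymes Pycr1 and Aldh18a1 had 0.76 and 0.49. Limma adjusted p values of these 8 genes lay between 0.000262 and 0.00912, and each call held when any 1 sample was left out. Phgdh, the first enzyme of serine synthesis, named after its values were seen, was at 80.2, 109 and 109 FPKM in the controls and 120, 117 and 113 with metformin, and was not called (0.24, adjusted p 0.268). Its log2 fold change was 0.09 without control 1 (adjusted p 0.230), and with GC correction it was 0.22 and called (limma adjusted p 0.0419).

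Of the amino acid transporters 3 of 7 tested genes were called higher and 0 lower, against 13.2% and 9.28% of all tested genes, with the same counts at an unadjusted limma p under 0.05 and with voom. Without control 1 there were 3 higher and 1 lower, against 23.5% and 20.4% of all tested genes. Leaving out any 1 of the other samples gave 2 higher and 0 lower. Those fits called 926 to 1571 of all tested genes higher and 486 to 1046 lower. Slc7a5, the large neutral amino acid transporter, was at 22.1, 21.4 and 22.3 FPKM in the controls and 50.3, 51.9 and 47.1 with metformin. The groups were far apart for their spread, with a log2 fold change of 1.15 (limma adjusted p 0.000217). Slc7a1, which carries arginine and lysine, was at 10.2, 8.01 and 9.16 FPKM and at 17.1, 18.6 and 17.2 with metformin (0.88, adjusted p 0.00172). Slc1a4, which carries alanine, serine and cysteine, had 0.32 (adjusted p 0.0428). It was called no longer without control 2 (0.112), control 3 (0.0836), metformin 1 (0.130), metformin 2 (0.178) or metformin 3 (0.150).

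Of the tRNA charging genes 3 of 13 were called higher and 0 lower, against 13.2% and 9.28% of all tested genes, with the same counts at an unadjusted limma p under 0.05 and with voom, and a median log2 fold change of 0.16. Without control 1, 7 were called higher and 1 lower, against 23.5% and 20.4% of all tested genes. Without metformin 1 or metformin 2, 0 were called, and without control 2 or metformin 3, 1 was called higher. Those fits called 926 to 1260 of all tested genes higher and 486 to 738 lower. Iars, Gars and Cars, the synthetases for isoleucine, glycine and cysteine, had log2 fold changes of 0.45, 0.33 and 0.31 (limma adjusted p 0.0115, 0.0242 and 0.0328). Iars lost its call without metformin 1 (0.0724) or metformin 2 (0.0718). Gars lost it without control 2 (0.0650), metformin 1 (0.137), metformin 2 (0.111) or metformin 3 (0.111), and Cars without the same 4 samples (0.0931, 0.134, 0.156 and 0.1003).

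Of the stress and growth control genes 1 of 10 was called higher and 1 lower, near the 13.2% and 9.28% of all tested genes. Without control 1 there were 3 higher and 4 lower, against 23.5% and 20.4% of all tested genes. Leaving out any 1 metformin sample gave 0 higher and 1 lower. Those fits called 926 to 969 of all tested genes higher and 486 to 526 lower. Vldlr, a lipoprotein receptor that ATF4 can induce, was at 14.6, 12.5 and 11.3 FPKM in the controls and 6.83, 6.52 and 6.76 with metformin. The groups did not overlap, and the log2 fold change was -0.84 (limma adjusted p 0.00222). Tnfrsf10b, a death receptor gene that CHOP can induce, had 0.44 (adjusted p 0.0400). It was called no longer without control 2 (0.117), control 3 (0.0896), metformin 1 (0.139), metformin 2 (0.138) or metformin 3 (0.11997).

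Of the 6 leucine zipper partners 0 were called higher and 1 lower by limma, against 13.2% and 9.28% of all tested genes. At an unadjusted p under 0.05 there were 1 higher and 2 lower, and voom on the recovered reads called 1 higher and 1 lower. Without control 1 there were 1 higher and 4 lower, against 23.5% and 20.4% of all tested genes. Nfe2l2, which encodes the antioxidant regulator NRF2, was at 34.1, 32.3 and 29.2 FPKM in the controls and 24.4, 23.8 and 24.9 with metformin (log2 fold change -0.37, limma adjusted p 0.0266). The call was lost without control 2 (0.0778), metformin 1 (0.116), metformin 2 (0.124) or metformin 3 (0.1004). Cebpb, a C/EBP partner of ATF4, was at 71.9, 340 and 324 FPKM in the controls and 192, 181 and 171 with metformin. Its metformin samples lay between control 1 and the other controls, so that the log2 fold change was -0.14 (adjusted p 0.888) with all samples and -0.87 (adjusted p 0.000235) without control 1. Tmem189 matches 320 bases of Cebpb on the other strand and held 571 to 1099 reads, so the count of Cebpb is less certain. Jdp2, a repressor of the same family, was at 12.6, 21.04 and 20.6 FPKM in the controls and 28.2, 28.2 and 28.3 with metformin (0.65, adjusted p 0.0517). It was called higher without control 1 (0.42, adjusted p 0.000977), with GC correction (adjusted p 0.00408), with voom (0.0356) and where all samples had to hold at least 10 reads (0.0425).

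The list of eIF2 kinases and eIF2 control holds the kinases, the eIF2 and eIF2B subunits and other genes that control this step. Of its 18 genes 0 were called either way by limma, against 13.2% higher and 9.28% lower of all tested genes. The log2 fold changes lay between -0.49 and 0.28. At an unadjusted p under 0.05 there were 2 (Eif2ak1 and Eif2b4, both lower), and voom on the recovered reads called 0. Without control 1, 4 were called higher and 2 lower, against 23.5% and 20.4% of all tested genes. With GC correction 2 were called higher and 2 lower, against 19.1% and 16.0%. Snx17 matches 204 bases of Eif2b4, and Aimp2 matches 488 of Eif2ak1, each on the other strand. Snx17 held 1672 to 2447 reads and Aimp2 294 to 482, so that both counts are less certain. Of the 4 kinases, named after their values were seen, Eif2ak1, which senses lack of heme, had -0.23 (interval -0.44 to -0.01, adjusted p 0.121), and -0.24 (adjusted p 0.0318) after correction for GC content. Eif2ak2, the sensor of viral RNA, had -0.19 (adjusted p 0.522). Eif2ak3, known as PERK, had -0.14 (interval -0.34 to 0.05), and Eif2ak4, known as GCN2, had 0.04 (interval -0.17 to 0.24). These kinases act through phosphorylation, which RNA levels do not show.

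**Figure D5:**
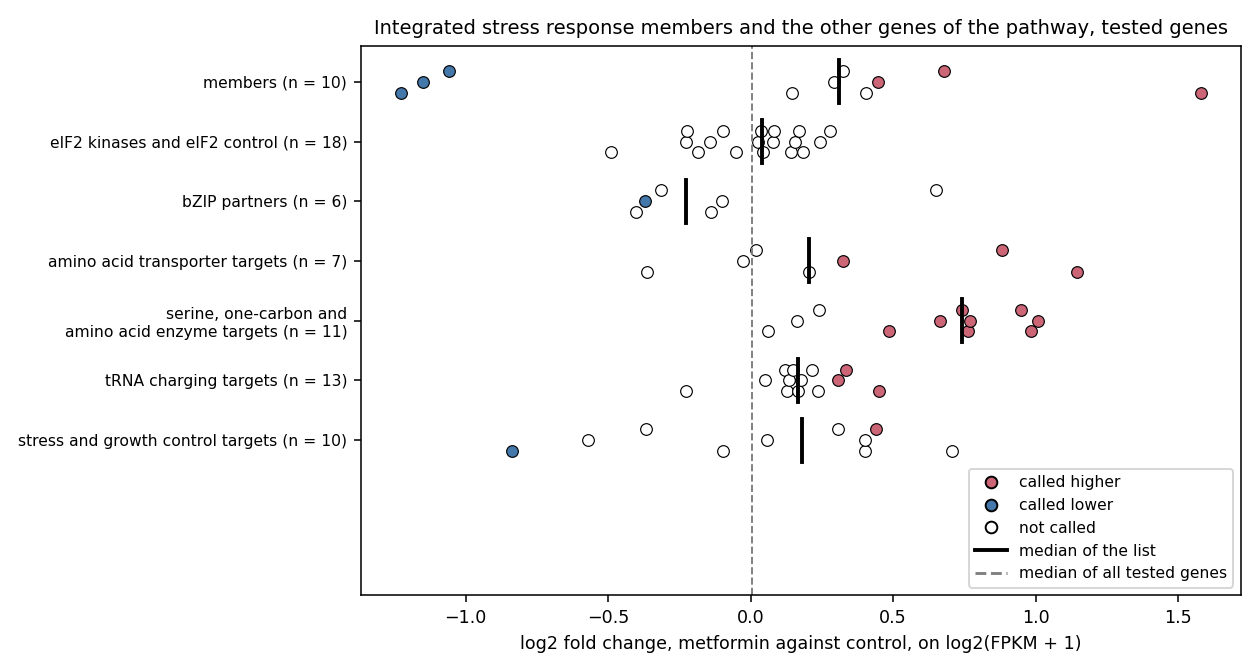
Log2 fold changes of the tested genes of each list between metformin and control on log2(FPKM + 1); filled points were called higher or lower by limma, open points were not called, and the bars are list medians. The enzyme list has a median of 0.74 with 8 of 11 genes called higher, and the list of eIF2 kinases and eIF2 control has a median of 0.04 with 0 of 18 called. Of all tested genes 13.2% were called higher and 9.28% lower.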

How the data were processed

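The authors deposited 1 table of expression values for 6 libraries made from total RNA with an Illumina TruSeq kit. The table names no unit. The deposited values are FPKM, as read from the values: multiplied by the listed gene length, 100% of those above 0 were whole multiples of 1 read (tolerance 0.01), scaled by the authors with an effective library size. The submitters' processing notes name Bowtie 0.12.2, and builds mm8 and mm9, while 53585 of 54532 entries have the coordinates of GENCODE M21 on GRCm38, which were used here. Whether strand was used, and how gene length was defined, are not given in the sources used here. The study's methods name DESeq2 for the authors' own comparison, which was not used here. The table held 0 columns of other samples.

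Genes with a mean of at least 0.5 FPKM were tested with limma 3.58.1 (R 4.3.3, trended variance) on log2(FPKM + 1), metformin against control, two-sided, with Benjamini-Hochberg adjustment over all 12681 genes at 0.05. The pseudocount of 1 understates the change of low genes. Ratios were tested by exact permutation, and the intervals given are 95%. Depth was 18399861 to 22111790 reads, so that 3 reads, the limit that a count of 0 allows, were 1.4e-05 to 1.6e-05% of a library; this covers counting error only. GC content came from the longest GENCODE transcript (12663 of 12681 genes), and the correction was a spline with 5 degrees of freedom. No duplicate library was found. The 10 genes share no stretch of 200 bases at 95% identity with another transcript (BLAST+ 2.17.0). Promoters came from RefSeq (GRCm38.p6). The main limma fit was tested on simulated reads with the same spread in both groups. No simulated library stood apart as control 1 does here, so that test does not cover such a library.

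The 10 genes were all named. Of the other lists, genes that passed the test, and any gene of lists of up to 6, could be named. The genes and lists were chosen with earlier results of these data known, so no count of them is independent support. The fit was repeated with voom on the recovered reads, with GC correction, with replicate number as a block, with 0.1 as pseudocount, with libraries scaled by their total reads, without the filter on low values, with a minimum of 10 reads in all samples, and with each sample left out in turn.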

Additional observations from a re-analysis of the deposited data

How the results depend on the processing

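Of 140 values of the 10 genes under other settings, 123 kept their direction and their side of the threshold, 15 kept the direction and lost the call, and 2 reversed, both without control replicate 1: with 1 sample left out at a time, the log2 fold change of Atf5 lay between -0.0888 and 0.6035 and that of Trib3 between -0.1554 and 0.3902. Chac1 and Atf3 stayed called in every setting run. Nupr1 was not called when no filter was applied (limma adjusted p 0.0944), which left 2 of the 10 genes called lower. Leaving out 1 sample at a time, between 1 and 3 of the 10 genes were called higher and between 1 and 3 lower. Among the other pathway genes, between 10 and 26 were then called higher and between 1 and 12 lower, and over all tested genes between 926 and 2974 higher and between 486 and 2587 lower. The cause was not tested.

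With GC correction, 2426 of all genes were called higher and 2030 lower, and 22 and 5 of the other pathway genes. Of 378 values of the other genes named, 327 kept direction and call, 34 lost the call, 12 gained it and 5 reversed. With 1 sample left out at a time, Eif2ak2 lay between -0.3476 and 0.0246 (the latter without control 1), Cebpa between -0.4029 and 0.0782, and Cebpb between -0.8696 and 0.2425. Cebpa and Cebpb were negative without control 1 and positive without control 2 (0.0782 and 0.2425) or control 3 (0.0233 and 0.2083).

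No pairing by replicate number was seen: deviations from the group means of same-numbered samples had correlations of -0.05, 0.00 and -0.05 across genes. Control 1 stood apart from the other controls and weighs on these deviations, so the correlations cannot exclude a weak pairing. When replicate number was a block in the fit, 1161 genes were called higher and 698 lower, 2 of the 10 genes were higher, since Asns had an adjusted p of 0.0550, and 11 and 1 of the other pathway genes were called higher and lower. Of the tRNA charging genes 0 were then called (3 higher without the block), and of the transporters 2 were called higher in place of 3. The block with GC correction gave 17 and 4 of these, and 1955 and 1542 of all genes. With 3 samples per group, a p that missed the threshold does not show that a gene was unchanged.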

Other observations

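The genes whose levels over the 6 samples were most like those of Atf4, by Pearson correlation of log2(FPKM + 1) and as a description only, were Sept5 (0.998), Mustn1 (0.998) and Hnrnpm (0.998). In all of them control 1 was the lowest sample: Sept5 was at 1.68, 5.60 and 5.64 FPKM in the controls and 6.11, 5.97 and 6.28 with metformin. Correlations above 0.95 with Atf4 were held by 475 tested genes. For Ddit3 the nearest were Clk3 (0.999), Rrnad1 (0.998) and Ahnak2 (0.998), and 326 tested genes were above 0.95. Over the same 6 samples Ddit3 had 0.962 with Nupr1, 0.941 with Atf3 and -0.937 with Asns. The samples fall into 2 treatment groups, with control 1 apart, so these values restate the group differences given for each gene.

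The spread within groups was unequal. Of the 10 genes, 9 had a higher coefficient of variation among controls than among metformin samples, as did 83.8% of all tested genes. In 7 of the 10 the coefficient was over 20% among controls, and in 3 (Atf5, Trib3 and Nupr1) it was below the counting error of the reads among the metformin samples.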
